A study of Mus musculus with 5 samples.

Results

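Fat cells break down stored triglyceride with intracellular lipases and take up lipoprotein fat with a secreted lipase. The 10 genes described here belong to these systems and were chosen by name. They are the intracellular lipase genes Pnpla2, Lipe, Mgll and Pnpla3, the Pnpla2 regulators Abhd5 and G0s2, and Lpl with its regulators Gpihbp1, Lmf1 and Angptl4. All 10 were measured, each by 1 probe set, among 19505 genes with a named probe set.

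Inside the cell, the triglyceride lipase ATGL (Pnpla2) takes the first fatty acid from triglyceride, hormone-sensitive lipase (Lipe) acts mainly on the diglyceride and monoglyceride lipase (Mgll) on the monoglyceride. CGI-58 (Abhd5) activates ATGL and G0S2 inhibits it. Outside the cell, lipoprotein lipase (Lpl) is folded with the help of the endoplasmic reticulum protein LMF1, carried to the capillary wall by the endothelial protein GPIHBP1 and inactivated by ANGPTL4.

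RNA came from 3T3-L1 cells, a mouse preadipocyte line turned into fat cells in culture. The 3 exposed arrays hold mature adipocytes kept for 72 h in RPMI-1640 with 10% serum while human MM.1S multiple myeloma cells shared the medium across a 0.4 µm transwell membrane, and the 2 control arrays hold mature adipocytes kept in that medium alone. Both groups had first passed through the same differentiation, 4 days of IBMX with 1 µM dexamethasone and 5 µg/mL insulin, then 2 days in which insulin was the only agent, and a last day without it. All samples come from 1 cell line, contact between the cell types was prevented, and the labels do not say whether replicates were separate cultures, so p-values measure a spread that may be technical.

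Values are log2 expression from Affymetrix Clariom S arrays, normalized between arrays by the authors with RMA, so a difference of 1 is a 2-fold difference. Array medians were 4.80 to 4.88, and the number of arrays limits the precision. A gene was called when limma's adjusted p over all 22206 probe sets was under 0.05. The adipocyte label held against its markers: the log2 values of Adipoq, the adiponectin gene, were 11.39, 11.58 and 11.73 on exposed arrays and 11.55 and 11.61 on control arrays. The summed log2 level of the 9 measured of 10 adipocyte markers was 82.1 to 82.5 on exposed arrays and 82.3 to 82.6 on control arrays. Of the 9, 1 lay below the median level of all probe sets, the leptin gene Lep with a mean of 3.17. The only marker of the 9 without overlap between the groups was Retn, higher on exposed arrays by 0.46 (limma unadjusted p 0.031, adjusted p 0.93). All 5 measured markers each of macrophages, of B and plasma cells and of hepatocytes, and 8 of 9 endothelial markers, lay below the median level of all probe sets, among them the defining genes Adgre1, Csf1r, Cd79a, Alb, Pecam1 and Cdh5. Of 8 preadipocyte and fibroblast markers 6 were measured, and their summed log2 level was 51.1 to 51.5 on exposed arrays and 51.6 to 51.9 on control arrays, without overlap. Taken singly, only the preadipocyte gene Dlk1 did not overlap (difference -0.28), where 17.3% of all probe sets did not. Its difference was the largest in size of the 6, so the separate sums do not stand for the whole set. No share without overlap was computed for such sums. The mean was lower on exposed arrays for 5 of the 6 and higher for Thy1, by 0.11. Whether exposed cultures held fewer preadipocytes was not tested. Only 1 of the 6 markers lay below the median level of all probe sets, and Dlk1 averaged 10.45 in log2 units over the 5 arrays. Their part in the lipase values was not tested. The defining marker Pdgfra was not analysed here. The array was designed for mouse genes, and what human RNA would contribute was not tested.

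No lipase gene or lipase regulator was called between exposed and control adipocytes. The count was 0 of 10, where 0% of all probe sets were called. At an unadjusted p under 0.05 limma again gave 0 of 10, where 3.49% of all probe sets passed. The group mean was higher on exposed arrays for 3 genes and lower for 7, where 49.9% of all probe sets were higher and 50.1% lower, with a median difference of -0.049 against -0.00040 over all probe sets. Exposed and control values overlapped or touched for all 10 genes, so 0 were separate, whereas 17.3% of all probe sets did not overlap between the groups. Limma's adjusted p ran from 0.93 to 1.00. An exact two-sided permutation test over the 10 splits of the arrays gave p-values of 0.4 to 1 for the single genes. As computed, this test cannot give less than 0.2 for 3 against 2 arrays. The 95% interval of the difference excluded a 2-fold change in either direction for all 10 genes, as it did for 92.9% of all probe sets. For Mgll, Pnpla3 and Gpihbp1 it no longer did so when either control array was left out, which leaves a lone control and takes all of the spread from the exposed group. It also no longer did so for Mgll without exposed array 2 and for Pnpla3 without exposed array 1 or 2. These are RNA levels of whole cultures, in which fewer cells of a type and less RNA per cell cannot be told apart.

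**Figure D1:**
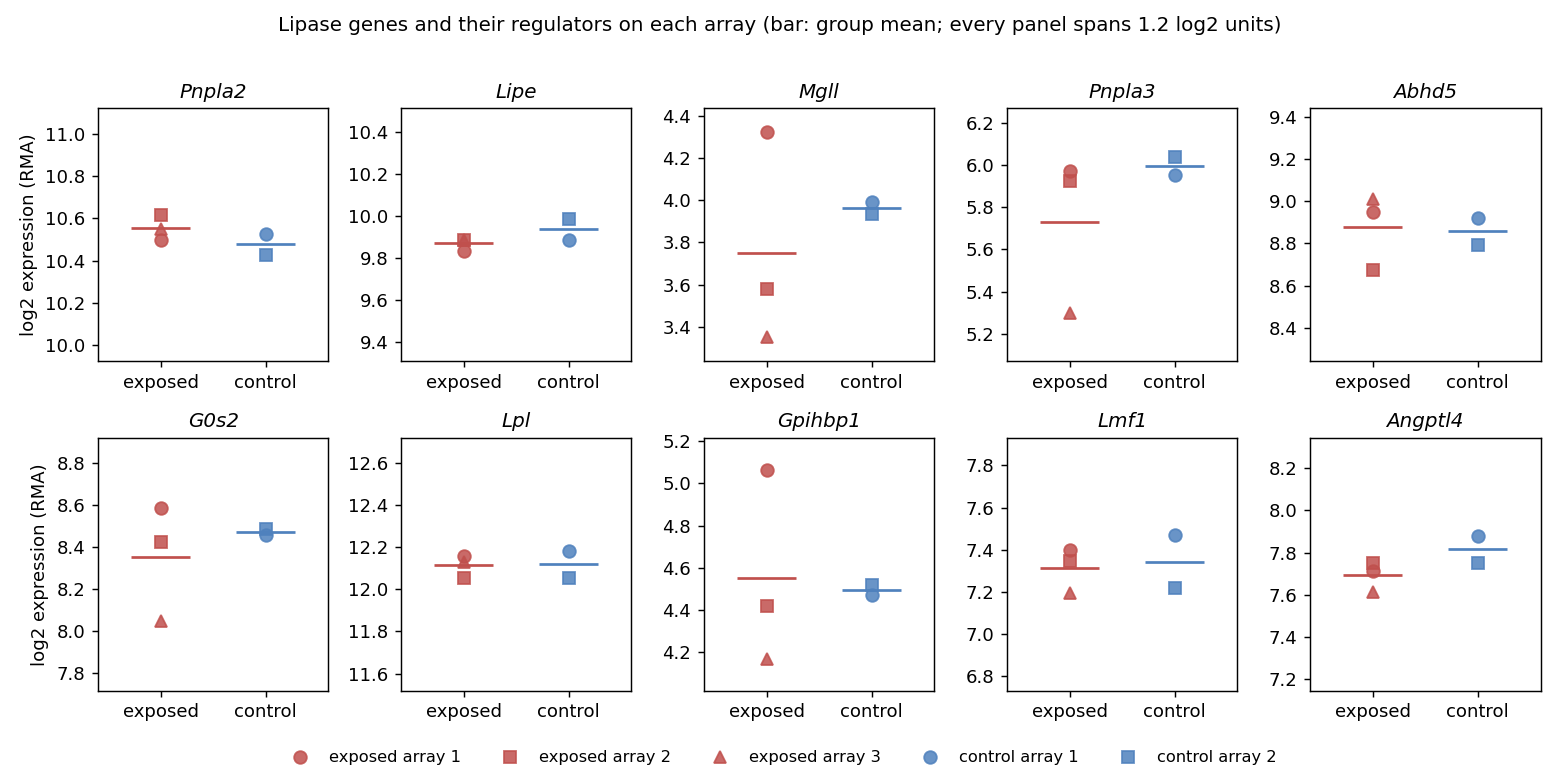
Log2 expression (RMA) of each gene on the 3 exposed arrays (red, left) and the 2 control arrays (blue, right), with bars at the group means; every panel spans the same width on the log2 scale. Pnpla2, Lipe and Lpl sit close together on all arrays, whereas Mgll and Gpihbp1 are spread over 0.97 and 0.90 by exposed arrays 1 and 3.

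The main triglyceride and diglyceride lipase genes varied little over the arrays. Pnpla2 had log2 values of 10.50, 10.62 and 10.55 on exposed arrays 1 to 3, and of 10.53 and 10.43 on control arrays 1 and 2. Its groups overlapped, and its group means were 10.56 ± 0.06 (SD, n = 3) for exposed adipocytes and 10.48 ± 0.07 (SD, n = 2) for controls. The difference was 0.077 with a 95% interval of -0.22 to 0.38, which is 0.857- to 1.30-fold. Lipe had log2 values of 9.84, 9.88 and 9.89 on exposed arrays, and of 9.89 and 9.99 on control arrays. Its highest value was on control array 2 and its lowest on exposed array 1, a range of only 0.15 over the 5 arrays. The Lipe difference was -0.067 (-0.36 to 0.22), or 0.780- to 1.17-fold.

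Mgll, whose enzyme releases the last fatty acid and also degrades the endocannabinoid 2-arachidonoylglycerol, was the most variable of the group. Its log2 values were 4.32, 3.58 and 3.35 on exposed arrays 1 to 3, and 3.99 and 3.94 on control arrays 1 and 2. Exposed array 1 lay above both controls and exposed arrays 2 and 3 lay below both. The group means were 3.75 ± 0.51 (SD, n = 3) for exposed adipocytes and 3.96 ± 0.04 (SD, n = 2) for controls, a difference of -0.21 (-0.91 to 0.49). Leaving out exposed array 1 gave -0.50 (-0.87 to -0.13), with an unadjusted p of 0.020 and an adjusted p of 0.88 by limma, and leaving out exposed array 3 gave -0.012. The probe set was dim, brighter than 37.3% of all probe sets on average. RMA compresses differences between dim signals, and brightness also depends on the probes, so this rank does not place the Mgll transcript against others.

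Pnpla3, which encodes the patatin-family protein adiponutrin of the lipid droplet, read 5.97, 5.92 and 5.30 on exposed arrays, and 5.96 and 6.04 on control arrays, in log2 units. Only exposed array 3 stood away, at 0.67 below the mean of the other 4 arrays, while the remaining values lay within the narrow band from 5.92 to 6.04. The difference of -0.27 (-0.82 to 0.29) was the largest of the 10 genes in size and became -0.049 (-0.36 to 0.26) without exposed array 3.

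The activator and the inhibitor of ATGL differed from each other in where their extremes lay. Abhd5 had log2 values of 8.95, 8.67 and 9.01 on exposed arrays, and of 8.92 and 8.79 on control arrays. Both its highest and its lowest value were on exposed arrays, and the difference was 0.021 (-0.35 to 0.39), a value that changed sign when exposed array 1, exposed array 3 or control array 2 was left out. G0s2 had log2 values of 8.59, 8.42 and 8.05 on exposed arrays, and of 8.45 and 8.49 on control arrays. Its control values lay inside the exposed range, with exposed array 1 at the top and exposed array 3 at the bottom. The G0s2 difference was -0.12 (-0.57 to 0.33), and 0.035 without exposed array 3.

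Lpl and the protein that folds it had nearly the same mean in both groups. Lpl had log2 values of 12.16, 12.06 and 12.13 on exposed arrays, and of 12.18 and 12.05 on control arrays. The control pair enclosed all 3 exposed values. Its means were 12.11 ± 0.05 (SD, n = 3) for exposed adipocytes and 12.12 ± 0.09 (SD, n = 2) for controls, a difference of -0.0045 (-0.31 to 0.30), or 0.809- to 1.23-fold, and its range of 0.13 was the smallest of the 10 genes. Lmf1 had log2 values of 7.40, 7.35 and 7.19 on exposed arrays, and of 7.47 and 7.22 on control arrays. The controls were 0.25 apart, wider than the exposed arrays, and the difference was -0.030 (-0.38 to 0.32). The sign of the difference depended on the arrays used: it was 0.061 for Lpl and 0.094 for Lmf1 without control array 1, and 0.025 for Lpl without exposed array 2 and 0.029 for Lmf1 without exposed array 3. With control array 1 left out, the lone control was assumed to vary like the exposed arrays.

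Angptl4, a fasting- and PPAR-induced inhibitor of lipoprotein lipase, read 7.71, 7.75 and 7.61 on exposed arrays, and 7.88 and 7.75 on control arrays, in log2 units. No exposed value exceeded either control value, but exposed array 2 and control array 2 held exactly the same number, so the groups touched. The difference was -0.12 (-0.43 to 0.18), which is 0.741- to 1.14-fold. Exact ties of this kind occurred for 2 of the 10 genes, Angptl4 and Lipe, and for 27.2% of all probe sets.

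Gpihbp1, a gene of capillary endothelium in tissue, was dim in these cultures, as were most endothelial markers. Its log2 values were 5.06, 4.42 and 4.17 on exposed arrays, and 4.47 and 4.52 on control arrays. Exposed array 1 was high and exposed array 3 was low, with both controls between them. The difference of 0.056 (-0.59 to 0.71) became -0.20 without exposed array 1 and 0.25 without exposed array 3. The summed log2 level of the 9 endothelial markers was 27.4 to 28.2 on exposed arrays and 27.4 to 27.5 on control arrays, with its highest value on exposed array 1, where Gpihbp1 was also highest. The part of endothelial transcripts in the Gpihbp1 values was not tested. Of the 9 endothelial markers 3 were highest on exposed array 1, where 22.3% of all probe sets were highest. The defining genes Pecam1, which averaged 3.10 over the 5 arrays, and Cdh5, which averaged 2.77, were not among these 3 markers.

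**Figure D2:**
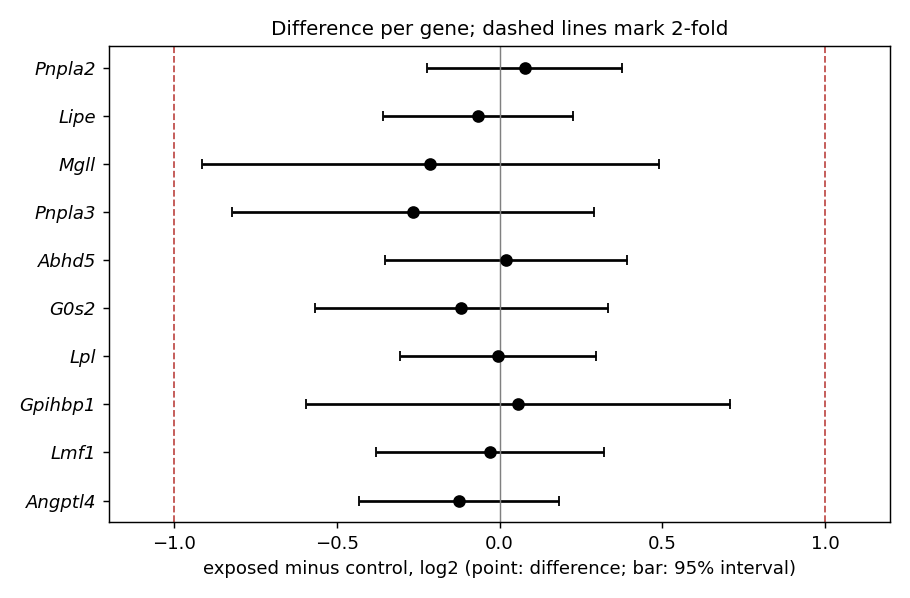
Difference of each gene, exposed minus control, in log2 units (point) with limma's 95% interval (bar), ordered by role from the intracellular lipases at the top to the regulators of lipoprotein lipase at the bottom. All 10 intervals include 0 and lie inside the dashed lines at a 2-fold difference; the widest half-width is 0.70 for Mgll and the smallest 0.29 for Lipe.

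The 4 genes of widest range, Mgll, Pnpla3, G0s2 and Gpihbp1, differed among the exposed arrays by 0.54 to 0.97, more than their group means differed. They were picked for a wide range, so this comparison carries no test. The lowest of the 5 values fell on exposed array 3 for 6 of 10 genes (Mgll, Pnpla3, G0s2, Gpihbp1, Lmf1 and Angptl4), where 22.2% of all probe sets were lowest on that array. Mgll, Pnpla3, G0s2 and Gpihbp1 were at least 0.5 lower on exposed array 3 than on exposed array 1, as were 9.69% of all probe sets, and 0 of the 10 genes were as much higher, as were 9.33% of all. Mgll, G0s2 and Gpihbp1 were highest on exposed array 1 and lowest on exposed array 3, an order shared by 6.35% of all probe sets. These counts were chosen after the values were seen and carry no test. The same arrays were the farthest apart over the whole table, with 425 probe sets more than 2-fold apart, against 228 between the control arrays. What set these 2 exposed arrays apart was not tested.

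**Figure D3:**
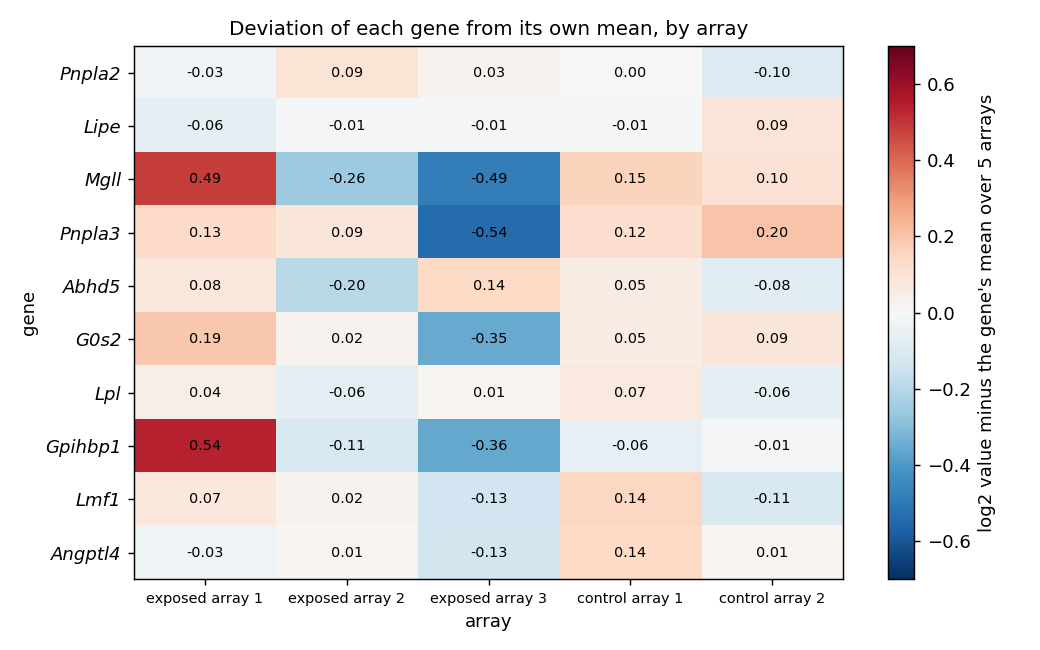
Log2 value of each gene minus its own mean over the 5 arrays, by array (red above, blue below the mean; exposed arrays at the left, control arrays at the right). Exposed array 3 holds the lowest value of 6 genes and exposed array 1 the highest of 3, whereas rows for Pnpla2, Lipe and Lpl are nearly blank.

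Bright members such as Lpl and Pnpla2 varied less over the arrays than dim ones such as Mgll, and median ranges of all probe sets likewise were smaller at high levels. The range over the 5 arrays had a median of 0.31 for the 10 genes and 0.50 for all probe sets. Ranked against probe sets of the same decile of mean level, 5 genes lay between the 10th percentile and the median range (Pnpla2, Lipe, Lpl, Lmf1 and Angptl4) and 5 between the median and the 90th percentile. Mgll, with a range of 0.97, was in a decile with a median of 0.62 and a 90th percentile of 1.08. Gpihbp1 had a range of 0.90 in a decile with a median of 0.60 and a 90th percentile of 1.05. Pnpla3 had a range of 0.74 in a decile with a median of 0.51 and a 90th percentile of 0.91. Among the members in deciles 9 and 10 of level G0s2 was the widest, at 0.54 in a decile with a median of 0.40 and a 90th percentile of 0.70.

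**Figure D4:**
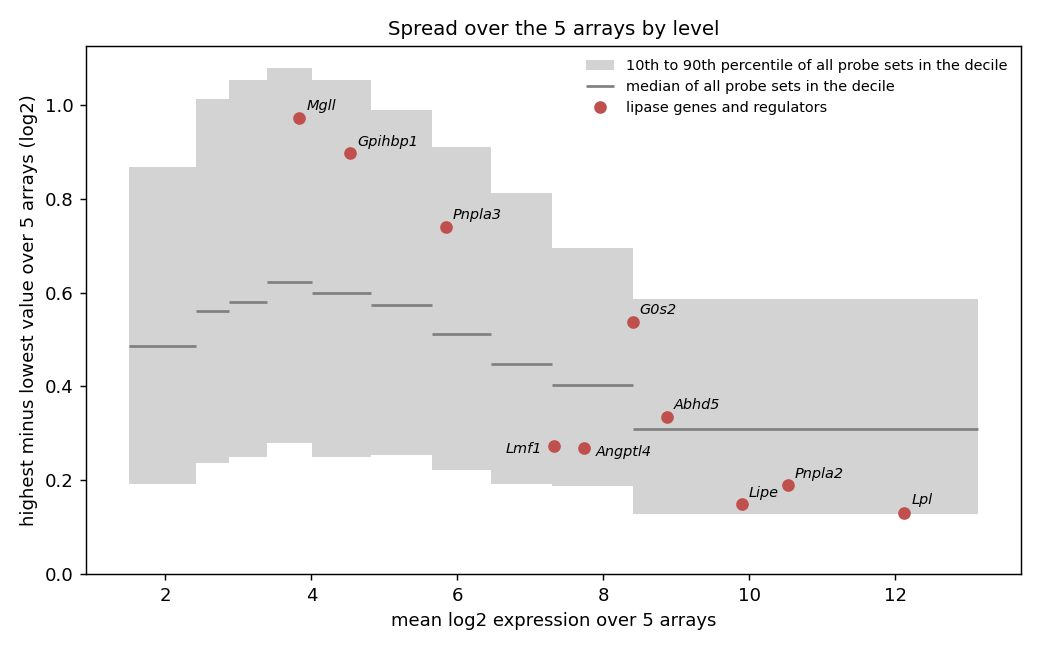
Range over the 5 arrays (highest minus lowest log2 value) against the mean log2 level; grey blocks give the 10th to 90th percentile and grey lines the median of all probe sets in each decile of level. All 10 genes (red points) lie within the grey blocks, from Lpl at 0.13 to Mgll at 0.97.

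Because lipolysis depends on the balance between a lipase and its regulators, the ratio of paired probe sets was also followed within each array. Each value is a log2 ratio minus its mean over the control arrays, so it shows unequal change and no absolute ratio. G0s2 over Pnpla2 was 0.096, -0.18 and -0.49 on exposed arrays, and -0.066 and 0.066 on control arrays. This ratio of inhibitor to lipase was thus lowest on exposed array 3, and the groups overlapped. Angptl4 over Lpl was -0.14, 6.5e-05 and -0.22 on exposed arrays, and -0.0022 and 0.0022 on control arrays. The controls agreed closely here, yet exposed array 2 lay between them. Lipe over Pnpla2 was -0.12, -0.19 and -0.12 on exposed arrays, and -0.099 and 0.099 on control arrays. It was the only 1 of 8 ratios whose groups did not overlap. The share without overlap was 17.3% for single probe sets and was not computed for ratios. For Lipe over Pnpla2 the nearest exposed and control arrays were at -0.12 and -0.099. The exact two-sided permutation p was 0.2, the smallest this test can give as computed. The ratios were chosen with earlier results known.

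The genes with the nearest profile over the 5 arrays were sought for Mgll, Gpihbp1 and Pnpla3, the 3 members of widest range. Likeness was the root mean square difference of the log2 values after each gene's mean was removed, over 9735 named genes at or above the median level. Nearest to Mgll were Zfp777 (0.076) and Rassf7 (0.084), nearest to Gpihbp1 were Tet3 (0.038) and Col9a3 (0.043), and nearest to Pnpla3 were Sf3a2 (0.020) and Capg (0.024). Tet3, which encodes an oxidase of methylated cytosine, read 7.10, 6.54 and 6.20 on exposed arrays, and 6.56 and 6.62 on control arrays. The order of high on exposed array 1 and low on exposed array 3 was that of Gpihbp1. Sf3a2, a splicing factor gene, read 6.65, 6.62 and 6.02 on exposed arrays, and 6.65 and 6.69 on control arrays, with only exposed array 3 apart, as in Pnpla3. These shared orders follow from the choice of the nearest profiles, and the likeness expected by chance was not tested. None of the 6 was called between the groups (limma adjusted p 0.93 to 1.00), where 0% of all probe sets were called.

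The wider lipolysis pathway was likewise not called. Of 108 genes in 6 lists, 92 had a named probe set, of which limma called 0 higher and 0 lower. The other 16 are not analysed here, among them the beta-adrenergic receptor genes. The group mean was higher on exposed arrays for 40 and lower for 52, with a median difference of -0.045. Exposed and control arrays did not overlap for 22 genes, or 23.9%, where 17.3% of all probe sets did not. From each list the 2 genes of lowest p are named below, so separate groups among them follow in part from that choice. At an unadjusted p under 0.05 there were 2 genes, or 2.17%, where 3.49% of all probe sets passed.

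The cAMP list covers the branch through which catecholamines switch on Lipe and release Abhd5 from the lipid droplet. It had 5 genes higher and 17 lower of 22 measured, with a median of -0.085. The list also holds genes that restrain this branch, such as phosphodiesterases, and natriuretic peptide receptors. Its counts therefore give no direction for the branch. Prkar2a, a regulatory subunit of protein kinase A, had log2 values of 5.70, 5.88 and 5.63 on exposed arrays, and of 6.24 and 6.18 on control arrays. All 3 exposed values were below both controls, with a difference of -0.48 (-0.81 to -0.15) that did not pass (limma unadjusted p 0.011, adjusted p 0.93). Groups did not overlap for 5 of the 22 genes, where 17.3% of all probe sets did not. Pde4b, a phosphodiesterase gene, differed by 0.58 (-0.09 to 1.26) with overlapping groups, and its interval did not exclude a 2-fold increase. The Pde4b difference was 0.25 without control array 2 and 0.92 without control array 1.

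Proteins of the lipid droplet and of fatty acid and glycerol handling had 3 genes higher and 7 lower of 10, with a median of -0.11. Plin4, a droplet coat protein, was at 8.85, 8.80 and 8.83 on exposed arrays, and at 9.01 and 9.03 on control arrays. The groups were separate but only -0.20 (-0.48 to 0.09) apart, and the gene did not pass (limma adjusted p 0.93). Of the 10 genes in this list 2 did not overlap, where 17.3% of all probe sets did not. Cidea, a droplet fusion protein, differed by 0.24 (-0.08 to 0.57) at a dim mean of 3.86. Plin1, which holds Abhd5 at the droplet in the resting cell and was named after its values were seen, read 9.86, 9.80 and 9.08 on exposed arrays, and 9.90 and 9.77 on control arrays. Exposed array 3 was the low array for Plin1, as it was for Pnpla3, G0s2 and 22.2% of all probe sets. Within the list Cidec, Hilpda and Aqp7 were also lowest there. In contrast, Plin2 and Plin3 were lowest on exposed array 1, and Plin5 was highest on exposed array 3. These further genes were named after their values were seen.

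Other neutral lipid hydrolases were split 9 higher and 8 lower of 17 measured, with a median of 0.0018. The list held 4 other genes of the patatin family of Pnpla2 and Pnpla3, of which 2 were higher and 2 lower in mean and none passed. Pnpla1 differed by -0.43 (-0.88 to 0.03) and Pnpla6, a lysophospholipase, by -0.52 (-1.09 to 0.04). Both probe sets were dim, with means of 3.50 and 4.63. Pnpla5 differed by 0.22 (-0.16 to 0.59) and Pnpla7 by 0.23 (-0.08 to 0.54), both named after their values were seen.

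Vascular lipases and further regulators of lipoprotein lipase had 12 genes higher and 6 lower of 18 measured, with a median of 0.051. Furin, a convertase that cleaves lipoprotein lipase and members of the ANGPTL family, was at 6.22, 6.01 and 5.92 on exposed arrays, and at 5.60 and 5.79 on control arrays. Every exposed value was above both controls, with a difference of 0.35 (-0.01 to 0.72) that did not pass (limma unadjusted p 0.054, adjusted p 0.93). Apoe, an apolipoprotein gene, differed by 0.22 (-0.07 to 0.51), also without overlap. In this list 4 of the 18 genes did not overlap, where 17.3% of all probe sets did not.

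Transcription factors that act on lipase genes were 7 higher and 9 lower of 16 measured, with a median of -0.076. Hif1a, the hypoxia-inducible factor gene, was at 8.11, 8.37 and 8.33 on exposed arrays, and at 8.67 and 8.57 on control arrays. All 3 exposed values were below both controls, with a difference of -0.35 (-0.69 to -0.01) that did not pass (limma unadjusted p 0.044, adjusted p 0.93). Cebpa, an adipogenic factor, differed by -0.24 (-0.64 to 0.16), and by -0.11 without exposed array 3. Insulin signalling genes, which restrain lipolysis, were 4 higher and 5 lower of 9, with a median of -0.012. Irs1, an insulin receptor substrate, differed by -0.23 (-0.56 to 0.10) and the kinase gene Akt2 by 0.19 (-0.13 to 0.51). Both were without overlap between the groups, and neither passed. Groups were separate for 4 of the 16 transcription factor genes and 4 of the 9 insulin genes, as for 17.3% of all probe sets.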

How the data were processed

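Total RNA of 5 samples was hybridised to Clariom S mouse arrays. The labels give a total of 10 samples, and only these 5 are in the values used here. Whether the authors' RMA covered other arrays was not examined. The authors deposited log2 values, 1 per probe set and array, for which the submitters' processing notes name RMA and Partek. Versions and annotation build are not given in the sources used here, and no detection calls come with the values, so no coordinates or presence calls are given. Symbols came from the platform annotation: of 22206 probe sets, 2634 were unnamed, 19572 carried a single symbol and 0 carried several. Of several probe sets of a gene, the brightest stood for it.

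The group comparison used lmFit and eBayes of limma 3.58.1 under R 4.3.3 (two-sided, no covariates or filter, 3 residual and 3.17 prior degrees of freedom), with Benjamini-Hochberg adjustment over all probe sets. The fit was also run on simulated normal values with planted changes, as a check of the code. That run is not used here to say what size of change could be called. Exact permutation tests used scipy 1.17.1. Alternatives left out arrays or changed blocks, moderation, weights, normalization, filter, probe set summary or threshold.

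The members and gene lists were chosen with earlier results of these data known. Named were the 10 members, the 2 genes of lowest p in each pathway list, since none was called, the 2 nearest profiles of the 3 members of widest range, and defining markers. The text marks pathway genes named after their values were seen. The markers Lep, Retn, Dlk1 and Thy1 were also named in this way.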

Additional observations from a re-analysis of the deposited data

How the results depend on the processing

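The count of called genes among the 10 lipase genes and regulators was 0 under all 17 alternatives, including an unadjusted p under 0.05. That threshold gave 776 of all probe sets and 2 of the pathway genes, and the other alternatives gave 0 of each. The smallest adjusted p of any of the 10 under an alternative was 0.85. Of 28 named genes, which are the members, the pathway genes of lowest p and the nearest profiles, 20 kept their sign throughout. Among them were Pnpla2, Lipe, Mgll, Pnpla3 and Angptl4. Sign changes with 1 array left out gave ranges of -0.045 to 0.12 for Abhd5, -0.23 to 0.035 for G0s2, -0.20 to 0.25 for Gpihbp1, -0.15 to 0.094 for Lmf1, -0.070 to 0.061 for Lpl, -0.24 to 0.17 for Col9a3, -0.32 to 0.12 for Rassf7 and -0.23 to 0.22 for Tet3.

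The replicate block, which leaves exposed array 3 without a partner and so has the same differences as without it but other intervals, gave -0.045 for Abhd5, 0.035 for G0s2, 0.029 for Lmf1 and 0.12 for Rassf7, and changed no call. Same-numbered arrays did not deviate together (correlations of -0.014 and -0.032 over probe sets), and with 2 pairs the numbers are not taken to pair the samples. Neighbouring title numbers as a block, with the same differences but not the same intervals as without exposed array 1, gave -0.016 for Abhd5, -0.20 for Gpihbp1, -0.23 for Tet3 and -0.24 for Col9a3. Array weights, 0.70 for exposed arrays 1 and 3 each, gave -0.035 for Abhd5, -0.0020 for Tet3 and -0.041 for Col9a3. Centring each array on its median gave -0.00019 for Tet3 and -0.015 for Col9a3, and a further quantile normalization gave 0.017 for Lmf1. The cause of these sign changes was not tested. The interval excluded a 2-fold difference for Mgll under 10 of 14 alternatives, Gpihbp1 under 11 of 14 and Pnpla3 under 10 of 15, and for the other 7 genes under all 15. Mgll and Gpihbp1 fell below the filter on dim probe sets and have no value there.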
